A study of Mus musculus with 4 samples.

Results

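The enzymes that make, interconvert and break down pyrimidine nucleotides were examined as a group of 10 genes. They were taken as the genes whose name in the array files is Cad, Dhodh, Umps, Ctps, Cda, Upp1, Upp2, Dpyd, Dpys or Upb1, and they are 10 of 27657 gene labels on the array. They have 16 probes in all, and the brightest probe of each gene over the 4 arrays stands for it. The mice were male C57BL/6J animals aged 13 weeks that had eaten a purified diet for 4 weeks, and their liver and spleen were taken for RNA. In the low NP groups this diet held 0.03% nucleic acids, and in the NP groups it held 0.5% nucleic acids after addition of 1.2% nucleoprotein (S-nuclegen). RNA was pooled within each diet and tissue before hybridisation, and the number of mice in a pool is not given in the labels. Each tissue has 2 arrays with the dyes exchanged. These are treated as 1 replicate of each pool, so no test of the diet was made, no p-value is given, and having only 2 arrays per tissue sets the precision. Pooled samples carry the number 1 or 2, which always goes with the dye orientation, and the labels do not settle whether each array had a pool of its own.

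Pyrimidine nucleotides are built from glutamine, bicarbonate and aspartate. CAD carries out the opening steps in the cytosol, dihydroorotate dehydrogenase (DHODH) acts at the inner mitochondrial membrane, UMP synthase (UMPS) closes the route, and CTP synthase turns UTP into CTP. Nucleosides from the diet or from cell turnover can be recovered by kinases or taken apart: cytidine deaminase (CDA) makes uridine from cytidine, and uridine phosphorylases (UPP1 and UPP2) release uracil. Uracil and thymine are then reduced by dihydropyrimidine dehydrogenase (DPYD), opened by dihydropyrimidinase (DPYS) and cleaved by beta-ureidopropionase (UPB1) to beta-alanine and beta-aminoisobutyrate. The liver is a main site of this breakdown, whereas the synthetic route is known for its activity in dividing cells, lymphocytes included.

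The sequences below are Cad probes other than the brightest, and the promoters of some members. Cad was measured with 4 probes, which did not all give the same liver ratio, and the pair shown here are the non-overlapping ones upstream of its brightest probe, placed in mm7 by the array files. Both are written in lower case with no base marked. The second spans more of the genome than its length of 60 bases.
Cad upstream probe, chr5:30099590-30099649, plus strand: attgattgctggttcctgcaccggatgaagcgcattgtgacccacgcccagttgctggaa
Cad probe next to the brightest, chr5:30110457-30110625, plus strand: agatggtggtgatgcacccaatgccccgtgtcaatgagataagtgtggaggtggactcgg

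The promoters shown next are those of a pair of genes of the synthetic route and of 3 genes of breakdown, the last of which were called lower together in spleen (values below). Each is the last 120 bases before the start of the gene in the RefSeq table for GRCm38.p6, read 5′ to 3′ on the gene's strand, with every CG dinucleotide in capitals. Of the 10 genes, 8 matched an entry of that table, and Dhodh and Dpys did not. For Upp2 the second of 2 listed starts is shown, and for Ctps the first of 2.
Cad, chr5:31054660-31054779, plus strand: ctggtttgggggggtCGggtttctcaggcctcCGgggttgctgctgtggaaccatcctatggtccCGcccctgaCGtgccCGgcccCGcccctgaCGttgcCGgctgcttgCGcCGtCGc
Ctps, chr4:120570277-120570396, minus strand: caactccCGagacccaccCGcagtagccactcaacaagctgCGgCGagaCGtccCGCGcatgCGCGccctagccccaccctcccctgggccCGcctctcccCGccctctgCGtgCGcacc
Upp2, chr2:58755064-58755183, plus strand: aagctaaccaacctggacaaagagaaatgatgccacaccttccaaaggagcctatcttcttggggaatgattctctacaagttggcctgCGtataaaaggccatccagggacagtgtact
Dpyd, chr3:118562060-118562179, plus strand: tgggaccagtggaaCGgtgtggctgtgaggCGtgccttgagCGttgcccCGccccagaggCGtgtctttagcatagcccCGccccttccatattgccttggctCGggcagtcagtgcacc
Upb1, chr10:75406791-75406910, plus strand: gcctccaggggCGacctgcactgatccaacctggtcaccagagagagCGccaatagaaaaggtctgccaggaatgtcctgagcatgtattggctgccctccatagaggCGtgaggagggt

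In the whole 250 bases before the start, Cad had 17 CG dinucleotides and Ctps 20, against a median of 6 over all 32851 windows of the same length. Dpyd had 10 and Upb1 7. Among windows not printed, Umps of the synthetic route also had 10, and the other Ctps start had 16. Cda had 14, and the Upp1 starts had 6 to 10. The Upp2 start shown had 2 and holds the letters TATAAA between 29 and 24 bases before it, while the other Upp2 start had 29 CG dinucleotides and a match to GTTAAT, the half-site of HNF1, on the opposite strand. On either strand TATAAA was found in 12.4% of all windows and GTTAAT in 6.43%. Upb1 had 2 matches to CCAAT, a motif present in 33.8% of windows, and Umps had TATAAA between 178 and 173 bases before its start. The E-box letters CACGTG (6.02% of windows) and the HNF4 letters CAAAGTCCA (0.384%) were in none of the members' windows. These searches, made on both strands, describe letters only, and no matches overlapped each other.

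In liver, no pyrimidine enzyme differed between the diets by 1.5-fold on both arrays. In spleen, the genes of base breakdown and Upp2 were much lower in the NP pool, while the synthetic genes lay close to 0. Ratios are log2 of NP over low NP, the opposite direction to that of the deposited value table, and ± gives how far each of the 2 arrays lay from their mean. A gene counted as measured if at least 1 dye of its probe stood well above background on both arrays, and called when it reached 1.5-fold in the same direction on both. In liver 9 of the 10 genes were measured and 0 were called, against 3.72% of all 16977 measured genes called in either direction, 0.0707% higher and 3.65% lower. In spleen 9 of 10 were measured, 4 were called lower and 0 higher, against 6.39% of 18415 measured genes called in either direction, 6.34% lower and 0.0434% higher. Among all measured genes, 0.242% in liver and 0.136% in spleen reached 1.5-fold in opposite directions on the 2 arrays, and no member did. The gene not measured was Upp1 in both tissues. Cda and Upp2 were measured in spleen through the low NP channel, because in the NP channel each was well above background on array 1 only. The count of 4 is therefore given for all 10 genes by name and not as a share of those measured. The median of the measured members was 0.10 in liver and -0.65 in spleen, where all measured genes had medians of 0.00 and -0.02. The spleen median is the value of Cda alone and not a shift of the group. The 4 called genes lay between -3.98 and -2.98, and Cad, Dhodh, Umps and Ctps between -0.13 and 0.13. With all 10 genes, the medians were 0.10 and -0.39.

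**Figure D1:**
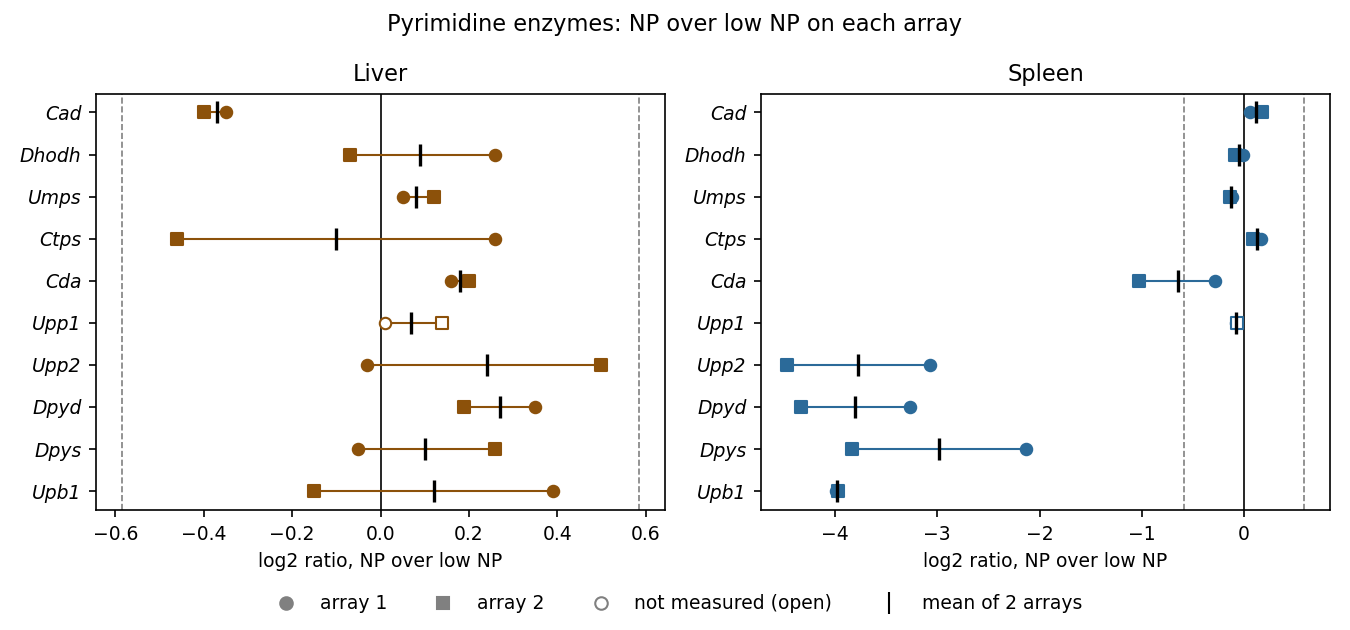
Log2 ratio of NP over low NP for each of the 10 enzymes in liver (left) and spleen (right), on axes of different range. Circles are array 1, squares array 2, bars their mean, open symbols genes not measured and dashed lines 1.5-fold. Upp2, Dpyd, Dpys and Upb1 lie between -4.47 and -2.13 on the spleen arrays, and no liver gene passes a dashed line.

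Breakdown of uracil and thymine begins with DPYD, the rate-limiting enzyme of the pathway. The normalized log2 signal of Dpyd was 9.10 on array 1 and 8.43 on array 2 in NP spleen, and 12.4 and 12.8 in low NP spleen. In NP liver it was 15.0 on each array, and in low NP liver 14.6 and 14.8. The 4 pools did not overlap, with NP liver highest and NP spleen lowest. The spleen ratio was -3.80 ± 0.53, and the low NP pool was 13.9-fold above the NP pool. The liver ratio was 0.27 ± 0.08 and not called.

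Dpys encodes the enzyme of the following step, which opens the reduced ring. Its signal was 9.21 and 7.82 in NP spleen, 11.3 and 11.7 in low NP spleen, 13.9 on each array in NP liver, and 14.0 and 13.7 in low NP liver. The liver pools overlapped, and each spleen pool stood below them. The spleen ratio was -2.98 ± 0.85, with -2.13 on array 1 and -3.83 on array 2, and the liver ratio was 0.10 ± 0.16. A further Dpys probe, 43.9 kb away in mm7, gave -2.80 in spleen and 0.13 in liver. Its spleen arrays gave -1.87 and -3.74, and in NP spleen it was well above background on 1 of the 2 arrays.

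Upb1 encodes the last enzyme of the route. Its signal was 10.9 and 10.8 in NP spleen against 14.9 and 14.7 in low NP spleen. In liver it was 16.5 and 16.3 with NP and 16.1 and 16.4 with low NP, so that the liver pools overlapped. The spleen ratio was -3.98 ± 0.01, a 15.8-fold higher level in the low NP pool, and the arrays gave nearly the same value, -3.99 and -3.97. The liver ratio was 0.12 ± 0.27, with the arrays on opposite sides of 0.

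Nucleoside enzymes were not uniform. Upp2, the uridine phosphorylase known from liver and kidney, had a signal of 7.76 and 6.95 in NP spleen and 10.8 and 11.4 in low NP spleen. In liver it was 12.7 and 12.9 with NP and 12.8 and 12.4 with low NP, and these overlapped. Its spleen ratio was -3.77 ± 0.70, and -5.00 with the scanner software's processed signals, and its liver ratio was 0.24 ± 0.26. Since the NP spleen probe was not well above background on array 2, the ratio of -4.47 on that array sets the low NP pool against a signal close to background.

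Cda, which deaminates cytidine and deoxycytidine, had a signal of 8.36 and 7.53 in NP spleen and 8.64 and 8.56 in low NP spleen, without overlap. Its spleen ratio was -0.65 ± 0.38 and was not called, because array 1 gave -0.28 and array 2 gave -1.03. It was -1.51 with the processed signals, again not called. In liver the signals were 9.96 and 9.97 with NP and 9.80 and 9.77 with low NP, and the ratio was 0.18 ± 0.02. Upp1, the more widely expressed uridine phosphorylase, was not well above background in either liver pool and was so in each spleen pool on array 1 only, so it is given no fold. Its signals lay between 7.02 and 7.53 over all pools.

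Spleen array 1 had a higher background than the other arrays. Its negative controls had a median signal of 156 in Cy3 and 307.3 in Cy5, against 62.7 to 66.3 in Cy3 and 71.9 to 74.0 in Cy5 on the other 3 arrays. The share of probes well above background was 93.3% and 94.8% there and 59.3% to 68.0% elsewhere. Dpyd, Dpys, Upp2 and Cda all had spleen ratios nearer to 0 on this array than on array 2, and Upb1 did not. Its part in these differences was not tested.

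The genes of de novo synthesis lay within 1.5-fold on every array. Cad had signals of 10.3 and 10.2 in NP liver, 10.6 on each array in low NP liver, 11.4 and 11.5 in NP spleen and 11.4 and 11.3 in low NP spleen. The 4 pools did not overlap at full precision, and both spleen pools were above both liver pools. The liver ratio of Cad was -0.37 ± 0.02 and the spleen ratio 0.12 ± 0.06, neither called. The overlapping probe, sharing 40 bases with the brightest, gave -0.36 in liver, and the printed neighbour, 0.2 kb away, gave -0.27. The printed upstream probe, 11.2 kb away, gave -0.09 in liver, with 0.01 on array 1 and -0.18 on array 2. In spleen it gave -0.14, where the other 3 probes gave 0.10 to 0.13.

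Dhodh showed no separation of pools, with signals between 10.2 and 10.5 throughout. Its ratios were 0.09 ± 0.17 in liver and -0.05 ± 0.04 in spleen. Umps had signals of 11.9 on each NP liver array, 11.9 and 11.8 in low NP liver, 11.4 and 11.2 in NP spleen and 11.5 and 11.4 in low NP spleen, a range of less than 1 log2 unit. Its ratios were 0.08 ± 0.03 in liver and -0.13 ± 0.01 in spleen. A further Umps probe gave 0.13 and -0.16. The remaining one, designed on a testis cDNA and placed on the opposite strand, was not measured in liver and gave 0.20 in spleen.

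Ctps, which makes CTP, had signals of 11.5 and 11.3 in NP liver, 11.2 and 11.8 in low NP liver, 12.9 on each array in NP spleen and 12.8 on each array in low NP spleen. The liver pools overlapped and both spleen pools were above them. The liver ratio was -0.10 ± 0.36, with 0.26 on array 1 and -0.46 on array 2, the Cy5 channel being the higher on both. The spleen ratio was 0.13 ± 0.04. The small positive spleen ratios of Cad and Ctps turned to -0.11 and -0.13 with median centring.

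**Figure D2:**
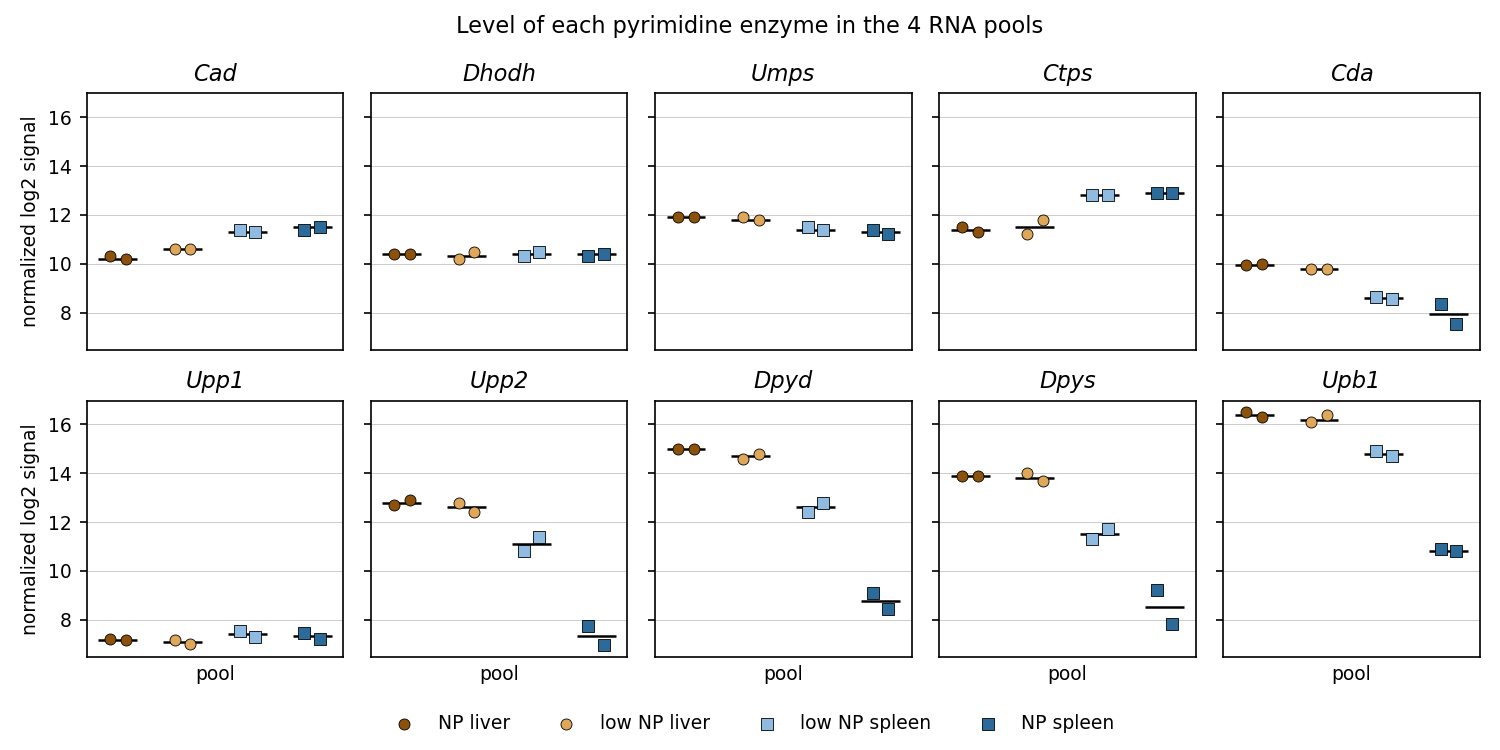
Normalized log2 signal of each enzyme in the 4 RNA pools, with 1 point per array and a line at the mean of the 2 arrays. Levels may be compared between pools of the same gene only. Upp2, Dpyd, Dpys and Upb1 step down from liver to low NP spleen to NP spleen, whereas Cad and Ctps are higher in spleen.

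The tissues were compared within each diet from the same normalized signals, per probe and with the arrays of each number set against each other. In the NP pools, liver was 73.6-fold above spleen for Dpyd, 45.6-fold for Upb1, 44.2-fold for Upp2 and 42.3-fold for Dpys. It was 4.04-fold above spleen for Cda and 1.51-fold for Umps. The NP spleen signals of Cda and Upp2 were not well above background on array 2. On arrays 1 and 2 the log2 differences were 1.59 and 2.44 for Cda, 4.98 and 5.95 for Upp2, and 4.68 and 6.12 for Dpys. They were 5.85 and 6.55 for Dpyd and 5.53 and 5.49 for Upb1. Spleen was 2.84-fold above liver for Ctps and 2.36-fold for Cad, and Dhodh differed by 0.05 on the log2 scale. In the low NP pools these distances were smaller for every one of those genes except Dhodh. Liver was then 4.39-fold above spleen for Dpyd, 2.65-fold for Upb1, 2.74-fold for Upp2 and 4.99-fold for Dpys, and spleen was 2.41-fold above liver for Ctps and 1.67-fold for Cad. With the scanner software's processed signals scaled to their upper quartile, the NP log2 differences were 7.26 for Dpyd, 6.41 for Upb1, 7.34 for Upp2 and 6.56 for Dpys, in place of 6.20, 5.51, 5.47 and 5.40, and that of Cda was 3.58 in place of 2.01. The low NP log2 differences were then 3.05 for Dpyd, 2.30 for Upb1, 2.10 for Upp2 and 3.23 for Dpys. These stood in place of 2.13, 1.41, 1.46 and 2.32, and were again smaller than those of the NP pools. In the same signals, the change in distance between the diets equals the liver ratio minus the spleen ratio by arithmetic. The smaller low NP distances therefore restate those ratios and add no independent evidence.

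Other genes of pyrimidine metabolism were read from a list of 31, all on the array. They cover salvage kinases, nucleotide kinases, thymidylate synthesis, nucleotidases, mitochondrial carriers and the enzymes that use beta-alanine and beta-aminoisobutyrate. In liver 30 were measured and 0 were called, against 3.72% of all measured genes, with a median of 0.02 ± 0.05. In spleen 31 were measured, 0 were called higher and 4 lower, against 0.0434% and 6.34% of all measured genes. The spleen median of the list was 0.00 ± 0.04. The 4 were Aldh6a1 (-2.27 ± 0.08), Abat (-2.10 ± 0.39), Agxt2 (-1.60 ± 0.87) and Tymp (-0.62 ± 0.02). ABAT, AGXT2 and ALDH6A1 act downstream of UPB1, on the beta-amino acids and the semialdehydes made from them, and TYMP is thymidine phosphorylase. Agxt2 was well above background in NP spleen on 1 of the 2 arrays. With median centring Tymp fell short of 1.5-fold on array 1, which left 3 of the list called.

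The highest liver values of the list were those of Aldh6a1 (0.43 ± 0.23) and Abat (0.22 ± 0.31), and the lowest those of the dUTPase gene Dut (-0.40 ± 0.09) and Ctps2, for the second CTP synthase (-0.32 ± 0.09). The highest in spleen were Cmpk2 and Dtymk, both nucleotide kinases. In the NP pools Dut was 3.80-fold and Ctps2 3.52-fold higher in spleen than in liver. Tyms, for thymidylate synthase, and the thymidine kinase gene Tk1 were not called in either tissue.

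**Figure D3:**
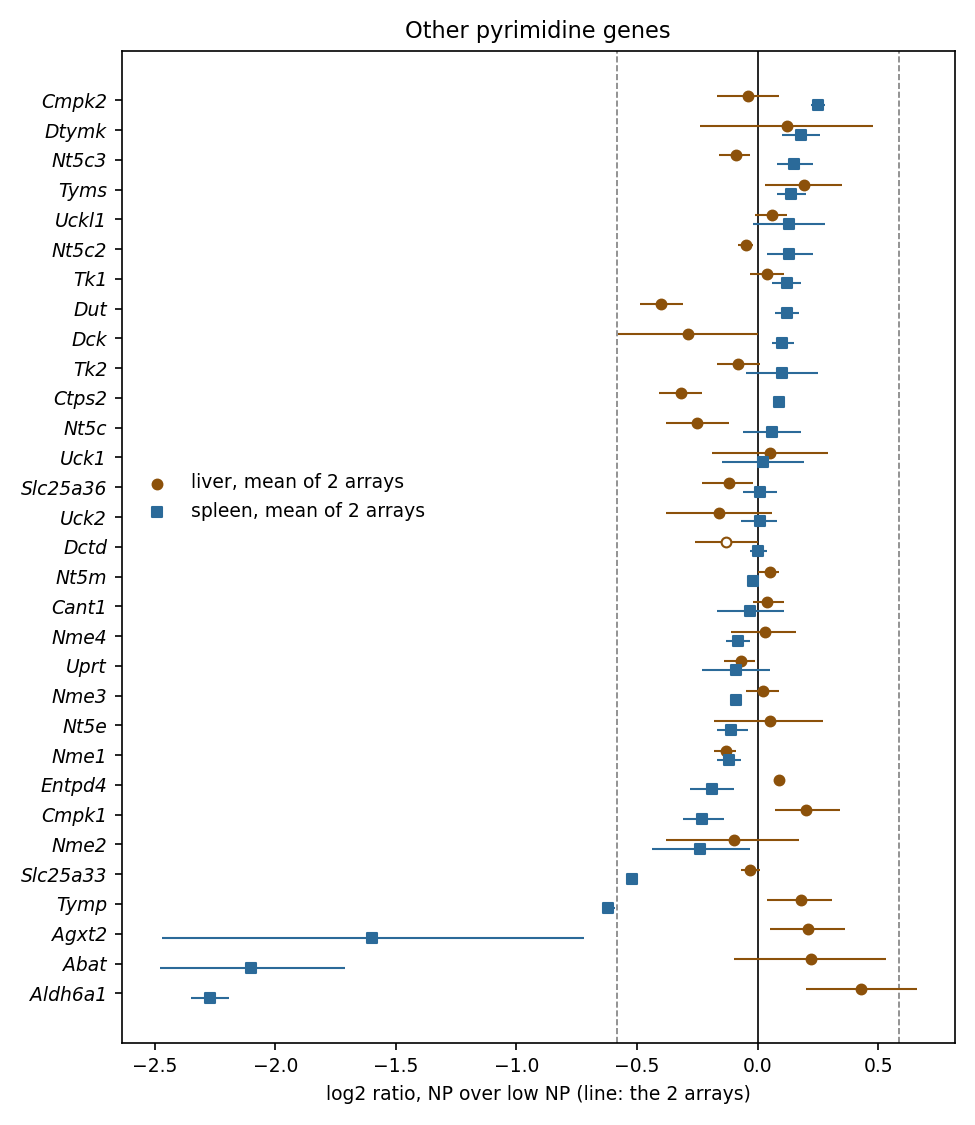
Log2 ratio of NP over low NP for the 31 other pyrimidine genes, ordered by spleen mean, with circles for liver and squares for spleen. Lines join the 2 arrays, dashed lines mark 1.5-fold, and the open symbol (Dctd) was not measured. Aldh6a1, Abat and Agxt2 stand apart from the rest in spleen, at -2.27, -2.10 and -1.60.

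Lists of cell type markers were read in the same way, beside 6.34% of all measured genes called lower in spleen and 0.0434% called higher. In spleen all 22 hepatocyte markers were called lower in the NP pool, with a median of -5.54 ± 0.43 and a range from -7.98 to -4.01, among them Alb, with saturated spots (-4.87 ± 0.79), Apoa1 (-5.29 ± 0.37) and Apoa2 (-5.13 ± 0.53). The log2 of their summed signal was 16.3 and 14.6 on the arrays of NP spleen, 21.1 and 20.8 in low NP spleen, and between 21.0 and 21.6 in the liver pools. This sum is weighted to the brightest genes, in low NP spleen Alb (18.9), Ahsg (18.4) and Rbp4 (17.8). It holds a saturated gene in every pool except NP spleen, so it does not show how the typical marker compares between low NP spleen and liver. In NP spleen 20 of the 22 hepatocyte markers were well above background on both arrays, and Cps1 and Otc on 1 only. In the NP channel this held for 94.8% of all probes on spleen array 1 and 64.5% on array 2, so passing on array 1 says little. The 10 exocrine pancreas markers were also all called lower in NP spleen, with a median of -2.16 ± 0.13 and, for Prss2, Cpa1 and Cpb1, values of -2.12, -2.15 and -2.50. The log2 of their summed signal was 18.7 and 17.8 in NP spleen and 20.6 and 20.4 in low NP spleen. Of 10 macrophage markers 2 were called lower in spleen, Clec4f (-2.85 ± 1.51) and Vsig4 (-1.47 ± 0.88), which mark Kupffer cells. The rest of that list was not called and lay between -0.05 and 0.26, and the median of the list was 0.10 ± 0.04. Of 9 erythroid markers 3 were called higher, Ank1, Rhd and Hemgn, and the list had a median of 0.60 ± 0.05. The B cell, T cell and cell cycle lists had 0 of 10, 0 of 10 and 0 of 16 called. In bulk RNA, fewer cells of a type and less RNA per cell cannot be told apart, and the tissue a transcript came from is not seen. The part of these cell types in the pyrimidine values was not tested.

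For each gene whose NP liver level was 4-fold or more above NP spleen, the low NP spleen level was expressed as a percentage of the linear distance from NP spleen up to NP liver. The 5 members that qualify lay at 16.7% for Dpys, 17.8% for Dpyd, 18.8% for Cda, 29.3% for Upp2 and 33.2% for Upb1. Cda, at 4.04-fold on average, qualified narrowly, with log2 distances of 1.59 on array 1 and 2.44 on array 2. With quantile normalization of all channels its distance was 1.95, and it no longer qualified. The median of the 4 members left was then 21.9%, in place of 18.8%. Of the other pyrimidine genes 4 qualify, from 11.2% for Tymp to 19.6% for Aldh6a1. The 22 hepatocyte markers ranged from 16.1% to 208%. Alb (208%), which had saturated spots, and Ahsg (187%) and Rbp4 (136%), which had none, lay above the NP liver level. The median of the hepatocyte markers was 32.1%, and without Alb it was 27.0%. The members thus fell inside the range of the hepatocyte markers, with Dpys, Dpyd and Cda below both of these medians, Upp2 between them and Upb1 above both. With the processed signals the median was 16.5% for the members and 17.8% for the hepatocyte markers. Because NP spleen enters this scale and the spleen ratio alike, the placement is a description and adds no independent evidence.

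**Figure D4:**
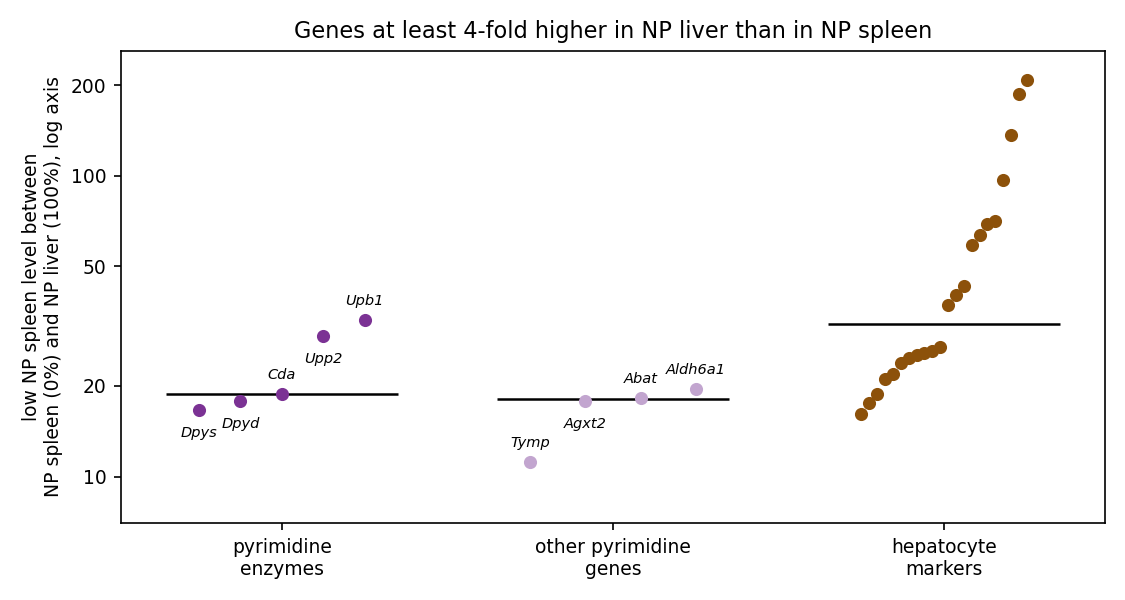
Low NP spleen level as a percentage of the distance from NP spleen to NP liver, on a log axis, for genes whose NP liver level is 4-fold or more above NP spleen. Each point is a gene and each line a median. The 5 pyrimidine enzymes lie between 16.7% and 33.2%, and the hepatocyte markers between 16.1% and 208%.

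In liver, where 3.65% of all measured genes were called lower, the lymphocyte lists moved. Of 10 B cell markers 8 were called lower in the NP pool, with a median of -2.10 ± 0.78, with Cd79b at -4.62 and Cd79a, not called, at -0.72. Of 10 T cell markers 7 were called lower, with a median of -1.88 ± 0.79, Cd3d at -2.56, Cd3g at -1.76 and Cd3e, not called, at -0.08. Of 16 cell cycle genes 3 were called lower, Mki67 (-2.03), Ccnb2 (-1.11) and Mcm6 (-1.26). The median of that list was -0.65 ± 0.37, with Top2a (-0.53) and Cdk1 (-0.36), neither called. All 10 pancreas markers were called lower, with a median of -1.03 ± 0.04, as were the macrophage markers Marco, Csf1r and Spic of 10 and, of 6 measured erythroid markers, Slc4a1. The log2 of the summed B cell signal was 12.5 and 11.8 in NP liver, 15.5 and 15.8 in low NP liver and 18.0 to 18.3 in the spleen pools, and Cd79a was not above background in NP liver on either array. The hepatocyte list was at 0.03 ± 0.39 in liver, with 0 of 22 called. For genes whose NP spleen level was 4-fold or more above NP liver, the low NP liver level was placed likewise between NP liver and NP spleen. The median was 15.2% for 9 B cell, 18.7% for 7 T cell and 11.8% for 5 macrophage markers. It was 11.8% for 12 cell cycle genes and 2.96% for 6 erythroid markers. NP liver enters this scale and the liver ratio alike, so this too is a description only. The part of lymphocytes in the liver values of the pyrimidine genes was not tested.

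The genes whose levels ran most like those of a member were found over the 8 array channels, after centring each gene on its own mean, among 16497 genes measured in both tissues. Likeness is the root mean square difference in log2 units. Levels were centred but not scaled, so a member that varied little, such as Dhodh, has small values. The values are therefore not to be compared between members. Nearest to Dpyd were Asgr1, a subunit of the hepatocyte asialoglycoprotein receptor (0.127), Serpina6, corticosteroid-binding globulin (0.128), and Ghr, the growth hormone receptor (0.130). Nearest to Upb1 was Ephx2, soluble epoxide hydrolase (0.125), to Dpys Cldn3, a claudin of tight junctions (0.118), and to Upp2 Lect2, a protein secreted by hepatocytes (0.219). Nearest to Cad were the translation factor gene Eif4g3 (0.0472), Tapbp, the chaperone tapasin of antigen presentation (0.0500), and Smarca4, a chromatin remodelling ATPase (0.0515). Nearest to Ctps was Lrrn3 (0.0445), to Umps the tRNA synthetase gene Nars (0.0306), to Dhodh Neurl2 (0.0259) and to Cda an unnamed transcript, followed by the nuclear receptor gene Rora (0.0874).

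Probes of the members called lower in spleen lie, in mm7, on chromosome 3 at 119204876 to 119204935 (Dpyd), chromosome 15 at 39781444 to 39781503 (Dpys), chromosome 10 at 75095748 to 75095807 (Upb1) and chromosome 2 at 58780701 to 58780760 (Upp2). The exon or untranslated region hit by each probe was not analysed here.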

How the data were processed

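Each of 4 2-colour Agilent whole mouse genome arrays on 1 slide set the NP pool against the low NP pool of the same tissue, liver or spleen. In each tissue array 1 had NP labelled with Cy5, and array 2 had it labelled with Cy3, per the labels. The deposited files give spot intensity (mean signal, median local background and processed signal) and flags from Agilent Feature Extraction 9.5.3.1, per the submitters' processing notes. A log10 ratio, Cy5 against Cy3, is there too, per the file headers. Set against this scanner ratio, the columns of the deposited log10 value table correlated at -0.992, 0.991, -0.993 and 0.998, so each column is low NP over NP. The scale matches the scanner ratio, column medians were 0.02, -0.07, -0.01 and -0.04, and how it was centred is unknown. The direction used here, NP over low NP, is the opposite.

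Background was corrected with normexp (offset 50) and ratios were normalized by loess within arrays in limma 3.58.1 under R 4.3.3. Control spots had no weight, and between 109 and 180 spots per array flagged as outliers were left out. Levels per pool were taken after Aquantile scaling between arrays. Of 41174 probes, 22944 were named by accession, 6664 by symbol and 3108 by synonym through RefSeq genes of GRCm38.p6, used for names only, and 8458 kept the name in the file. Tables were made with Python 3.11.15, pandas 2.3.3 and numpy 2.4.6, and figures with matplotlib 3.10.9. Simulated data served to test the calls.

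The members and gene lists were chosen with earlier results of these data known. The text names all members, the called and most extreme other pyrimidine genes, the first 3 measured genes of each marker list and the genes most like a member, of which some are left out here. A listed marker is not reported here. Tyms, Tk1 and the called macrophage, erythroid and cell cycle genes outside those were added after their values were seen. Alternatives were other normalizations, signals, filters, probes, folds and each array alone.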

Additional observations from a re-analysis of the deposited data

Results flagged for a closer look

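For 4 of the measured members, both liver arrays lay on one side of 0 and both spleen arrays on the other. The liver ratio minus the spleen ratio was 4.07 for Dpyd, 0.83 for Cda, 0.22 for Umps and -0.49 for Cad, in log2 units. These differences between tissues were not tested, since the arrays of a tissue count as 1 replicate. Those of Umps and Cad lie below 1.5-fold, and 3 of the 4 did not keep opposite signs in the tissues under every alternative. The spleen ratio of Cad was -0.11 with median centring, that of Umps was 0.02 with the processed signals and with the series value table, and the liver ratios of Umps and Cda were -0.03 and -0.06 without normalization.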

How the results depend on the processing

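The 4 spleen calls (Upp2, Dpyd, Dpys and Upb1) had the same sign and the same call under every alternative that gave them a value, although Upp2 moved from -3.77 to -5.00 with the processed signals and with the series value table. Upp2 has none under the filter on both channels, which left 3 called of 7 measured members. Leaving out an array gave 4 to 5 called in spleen and 0 in liver, the fifth being Cda, at -1.03 on array 2 alone. The median of the members in liver was 0.10, and it was 0.23 with median centring, -0.03 without normalization, 0.20 with the processed signals and with the series value table, and 0.12 to 0.16 with an array left out. The median of all liver genes moved as well, to 0.06, -0.20, 0.11 and 0.10, so the members lay 0.09 to 0.17 above it in these settings. In spleen the median of the members was -0.65, and -1.51 with the processed signals and with the series value table, where the median of all genes was 0.10, and -1.03 to -0.20 with an array left out, the latter over 10 members. The remaining alternatives kept it between -0.65 and -0.13, the latter with 7 members. The medians of -0.65 and -1.51 are the values of Cda alone. Each ratio paired the NP and low NP pools of a tissue within an array. No paired test was made, because the arrays of a tissue count as 1 replicate. Low signal limits Upp1, and in NP spleen Cda, Upp2 and the further Dpys probe.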
